A study of Rattus norvegicus with 8 samples.

Results

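S100 calcium-binding proteins were followed through single cells of the rat spinal cord by 9 genes, S100a1, S100a4, S100a6, S100a8, S100a9, S100a10, S100a11, S100a13 and S100b, which were taken by gene symbol from the 32623 genes of the count tables. All 9 were detected. Female Wistar rats aged 8 weeks had the lamina over the cord removed and were either left so (sham) or given a mild, moderate or severe contusion with a falling weight, and cord tissue around the lesion was taken 7 days later. Each of the 4 groups has 2 droplet libraries of unique molecular identifiers (UMIs), which count 1 tag near the 3′ end of each RNA molecule whatever the length of the gene. The labels do not say whether the libraries of a group came from separate animals, so p-values measure only the spread between these libraries, which may be technical.

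S100 proteins are small proteins with paired EF-hand calcium-binding loops that mostly act as dimers and change shape when calcium binds. Inside the cell many of them dock on partner proteins such as annexins, the cytoskeleton and membrane channels, and several are also released and are read by receptors such as Tlr4 and the receptor for advanced glycation end products. S100A8 and S100A9 pair to form calprotectin, an antimicrobial complex of neutrophils, whereas S100B is a long-used marker of glia.

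In the RefSeq gene order 8 of the 9 genes lie on chromosome 2 and S100b lies alone on chromosome 20. S100a8 and S100a9 are immediate neighbours, as are S100a1 and S100a13, and S100a11 and S100a10. A RefSeq table of rat promoters (GRCr8) held 6 of the 9 genes, without S100a1, S100a8 and S100a10, and the 250 bases before each start were searched on both strands. The 30-base windows below are shown because S100a9, S100a4, S100a6 and S100a11 carry most of the results on neutrophils, macrophages and fibroblasts. They are written 5′ to 3′ on the strand of the gene with the matched letters in capitals. Both TATA matches (TATAAA) lay in S100a9 and S100a4, 42 and 31 bases before the start, at chr2:178490647-178490676 on the minus strand and chr2:178388486-178388515 on the plus strand.
S100a9 TATA box: caaggagctgccTATAAAtgctgggcttac
S100a4 TATA box: ggcatggcagggTATAAAtaggtcagattg
GC boxes (GGGCGG) were found in the other 3, 80 bases before the start of S100a6 at chr2:178398445-178398474, 59 before that of S100a11 at chr2:181875061-181875090 and 82 before that of S100a13 at chr2:178296926-178296955, all on the plus strand. S100a11 held another that overlaps this window, 64 bases before its start.
S100a6 GC box: ccagcactccctGGGCGGgcctcaccgatg
S100a11 GC box: tgcagaggggcgGGGCGGgccggggcgcgg
S100a13 GC box: tagtgacagcagGGGCGGtctcctctctcg
S100a9 alone held a match to the core of the C/EBP site (TTNNGNAA, 173 bases before the start, chr2:178490777-178490806) and of the PU.1 site (GAGGAA, 209 bases before the start, chr2:178490814-178490843), both on the opposite strand, so that the capitals show the reverse complement. C/EBP is a family of factors and PU.1 a single factor, both known from myeloid cells.
S100a9 C/EBP core: aaggctgggaaTTTCACAAaacagcagagc
S100a9 PU.1 core: caactaactagtTTCCTCccaaacaagctc
Of all 33469 promoters listed by RefSeq, 12.9% held TATAAA, 30.5% GGGCGG, 37.2% TTNNGNAA and 23.3% GAGGAA, so each motif is common. S100b held none of these, nor TGANTCA (6.34% of promoters) or ACAAAG (16.3%), which none of the 6 genes held. These matches are descriptions of letters and were not tested as sites.

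The 8 libraries held 68658 cells, of which 55455 passed the filters (2336 to 10016 per library), with median depths of 2745 to 10836 UMIs per cell. Cells were put in a type by at least 3 marker genes, none of them an S100 gene, and 17.18% of the kept cells stayed without a type. The types include 27884 macrophages/microglia (7632 microglia-type, 14319 infiltrating-type), 5462 neutrophils, 3758 oligodendrocytes, 2369 oligodendrocyte precursors and 1928 fibroblasts. Of the neutrophils 25.16% and of the oligodendrocyte precursors 25.62% lay near the limit of their gate. Astrocytes reached the minimum of 20 cells in 2 libraries only and neurons in 3. Pairs of libraries shared 5 to 40 cell barcodes, which is 0.163% to 0.452% of the smaller library. The sham libraries stand apart from each other, since replicate 1 held 3559 neutrophils and replicate 2 held 1, and 28.2% and 90.1% of their macrophages/microglia were microglia-type. Sham neutrophils and sham fibroblasts therefore come from replicate 1 alone, and there the library and the sham condition cannot be told apart. Nothing in the labels serves to check that replicate 1 is a sham library, so its values are those of the library labelled sham, here and in every comparison with sham.

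UMIs were summed per library and cell type and are given as CPM, the usual scaling of counts to the total UMIs of their own sum, with the SD over libraries. Most of the 9 genes had a large part of their UMIs in 1 cell type. Gated neutrophils held 83.98% of all S100a8 UMIs and 83.96% of all S100a9 UMIs with 2.606% of all UMIs. Without sham replicate 1 these shares were 43.8% and 47.88%, and in single libraries they ran from 13.56% to 66.26% for S100a8 and from 20.59% to 68.14% for S100a9. In those libraries cells without a type held 24.96% to 41.44% of S100a8 and 27.69% to 43.49% of S100a9. The UMIs outside gated neutrophils are therefore not all in other types. Cell clusters typed as neutrophils held 2485, 2395, 2776 and 2872 cells, of which 1556, 2063, 1003 and 827 were gated as neutrophils. The gate thus left out many cells of these clusters, and the shares are those of gated neutrophils only. How much of the signal in cells without a type came from neutrophils was not tested. The neutrophil share in sham replicate 2 is that of 1 gated cell. Oligodendrocytes held 81.75% of S100b and 59.21% of S100a1 with 8.332%. Fibroblasts held 50.48% of the UMIs of S100a6, the calcyclin gene, with 5.722% of all UMIs. Infiltrating-type macrophages held 75.43% of S100a4 and 56.71% of S100a11 with 34.82% of all UMIs. Their 35.12% of S100a10 is near that share. Cells without a type held 24.35% of S100a10 with 9.099% of all UMIs. Oligodendrocyte precursors held 14.59% with 5.132%, and fibroblasts 10.76%. S100a13 had 25.63% of its UMIs in infiltrating-type macrophages and 22.29% in oligodendrocytes.

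**Figure D1:**
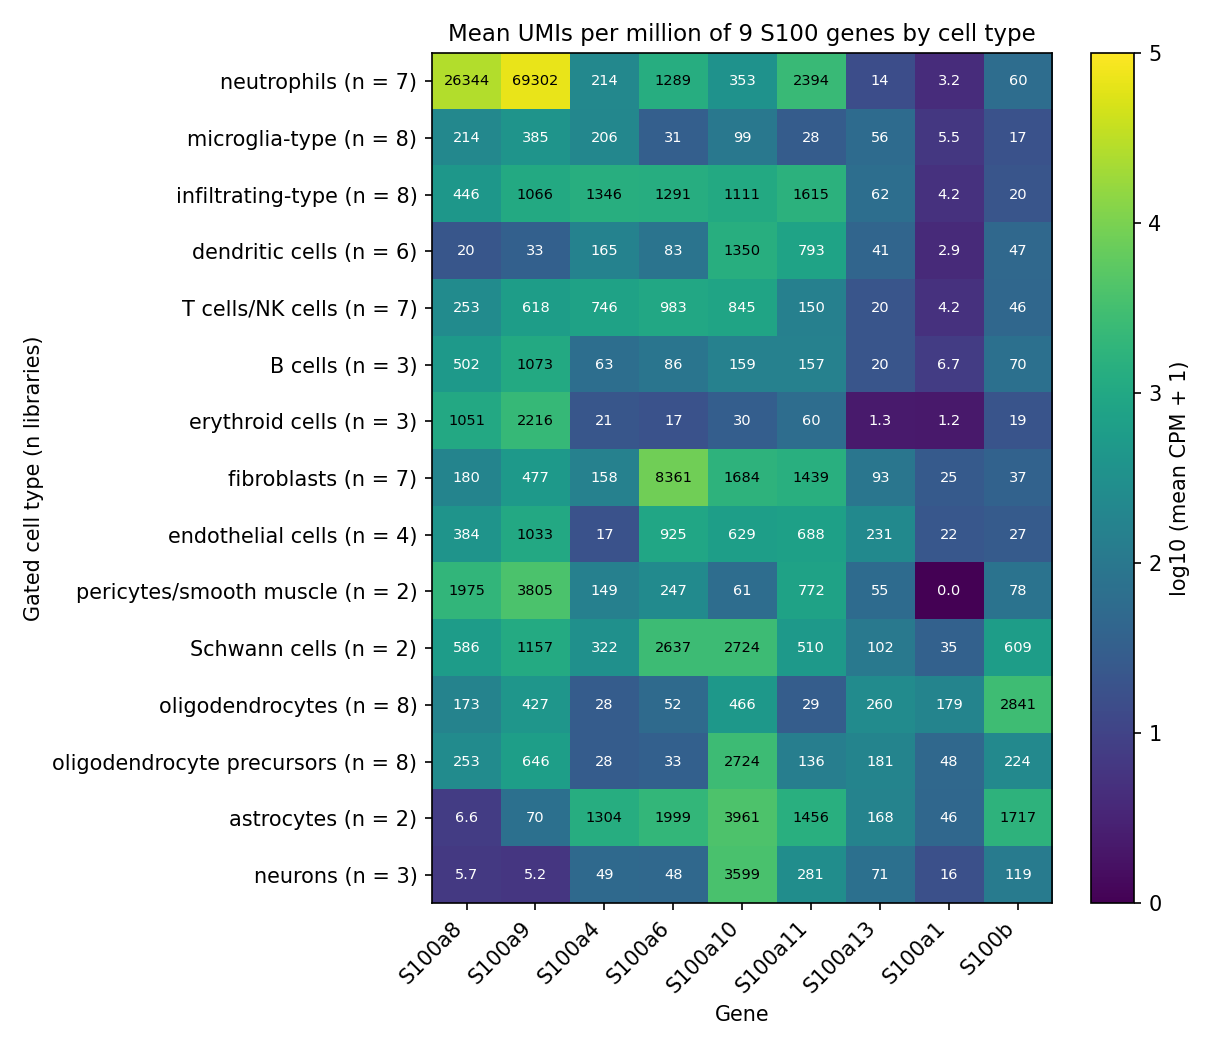
Mean CPM over libraries (numbers and colour, log10 of mean CPM + 1) of the 9 S100 genes (x axis) in gated cell types (y axis, n = libraries with at least 20 cells). S100a9 and S100a8 are highest in neutrophils, S100a6 in fibroblasts, S100a10 in astrocytes and S100b in oligodendrocytes, and the mean of 3805 CPM of S100a9 in pericytes/smooth muscle is that of 2 libraries at 7609 and 0 CPM.

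S100a8 and S100a9, the calprotectin subunits, were highest in neutrophils, with 26344 ± 25560 and 69302 ± 68529 CPM (SD, n = 7). S100a8 was at 82825 CPM in neutrophils of sham replicate 1, at 17677 and 14265 in mild, at 25511 and 6692 in moderate and at 17067 and 20371 in severe replicates 1 and 2. S100a9 was at 219700 CPM in sham replicate 1, 40093 and 36468 in mild, 82395 and 32320 in moderate, and 34976 and 39161 in severe. The sham library lies above all 6 injured libraries for both genes, and the 3 injured groups overlap. In that library S100a8 and S100a9 together made up 30.25% of all neutrophil UMIs, against 3.90% to 10.79% in the others, and its neutrophils carried 3137 UMIs per cell against 835 to 1795.

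Within each library, neutrophils were compared with macrophages/microglia by an exact sign-flip permutation test of log2(CPM + 1), two-sided and adjusted with Benjamini-Hochberg over 45 tests of 9 genes in 5 pairs of types. S100a8 was higher in neutrophils by 7.88 ± 1.61 log2 units and S100a9 by 8.73 ± 1.94 (SD, 7 of 7 libraries, exact permutation p = 0.0156, the smallest that 7 libraries allow, adjusted p = 0.026). S100a11, a partner of annexin A1 also named calgizzarin, was higher by 1.40 ± 0.53 in 7 of 7. S100a4, known from motile leukocytes and named metastasin, was lower by 3.04 ± 2.25 and S100a13 lower by 2.11 ± 0.91. In all, 6 of the 9 genes differed between these types, with S100b the sixth at 1.44 ± 0.86 higher in neutrophils. In sham replicate 1 S100b was at 146 CPM in neutrophils, 197 in B cells, 132 in T cells/NK cells and 48.9 in erythroid cells. The part of free RNA in this difference of S100b was not tested. S100a6 (0.58, adjusted p = 0.446 by the exact test) and S100a10 (-1.54, adjusted p = 0.0827 by the exact test) did not pass.

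Outside neutrophils, the levels of S100a8 and S100a9 were highest in sham replicate 1. In sham replicate 1 the 10 other gated types lay between 1150 and 3950 CPM for S100a8 and between 2309 and 7609 for S100a9. Oligodendrocytes of that library, which should lack both genes, had 1279 CPM of S100a8 against 0 in sham replicate 2 and 0.492 to 48.1 in the 6 injured libraries. Fibroblasts repeat the gap, with 1150 CPM of S100a8 in sham replicate 1 and 4.80 to 45.3 in the injured libraries. Within the other libraries the types also differed, in mild replicate 2 from 3.13 to 244 CPM of S100a8, the highest in T cells/NK cells, and in severe replicate 2 from 1.23 to 34.8, the highest in dendritic cells.

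After each cell was thinned to 1000 UMIs, 91.0% of neutrophils held an S100a8 UMI (Wilson 95% interval 90.1 to 91.8, 4358 cells deep enough) and 93.5% an S100a9 UMI (92.7 to 94.2). These shares pool the libraries, and sham replicate 1 held 3559 of the 5462 neutrophils, at a median of 2776 UMIs. The medians were 684 to 921 in mild and moderate libraries, so most of those neutrophils were too shallow, and 1565 and 1672 in severe. Shares of cells with an S100a8 UMI were lower in other types, at 17.4% of oligodendrocytes, 4.40% of erythroid cells and 5.51% of macrophages/microglia. Unthinned, the shares were 88.6% in neutrophils, 40.5% in oligodendrocytes, 10.1% in erythroid cells and 21.9% in macrophages/microglia, at median depths of 2052, 10720, 7423 and 10660 UMIs. All intervals cover counting error only.

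The shares outside neutrophils are mostly those of 1 library. In sham replicate 1, 76.1% of B cells, 55.2% of oligodendrocytes and 70.1% of macrophages/microglia held an S100a8 UMI at 1000 UMIs. In sham replicate 2 the same count gave 0.746% of macrophages/microglia (0.445 to 1.25) and 0 of 37 oligodendrocytes, which allows a share of up to 8.11%. Sham replicate 1 carries 91.97% of all S100a8 UMIs and 93.61% of all S100a9 UMIs of the series.

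The ratio of S100a9 to S100a8 gives a second view of these levels. In sham replicate 1 it was 2.65 in neutrophils, 2.61 in fibroblasts, 2.69 in endothelial cells and 2.49 in macrophages/microglia, with 1.95 in microglia-type cells. In the injured libraries macrophages/microglia had ratios of 1.55 and 1.08 (mild), 1.66 and 2.73 (moderate) and 1.04 and 0.801 (severe). Neutrophils of the same libraries had 2.27 and 2.56, 3.23 and 4.83, and 2.05 and 1.92, so that the ratio was lower in macrophages/microglia in 6 of 6. Low ratios were not particular to macrophages/microglia. Fibroblasts had 53.9 and 6.31 CPM of S100a9 in mild, 135 and 134 in moderate and 5.08 and 6.34 in severe. Their S100a8 was at 26.7 and 7.88, 45.3 and 15.8, and 4.80 and 12.7 CPM. In mild replicate 2, 5.67% of macrophages/microglia (5.03 to 6.38) and 0.404% of oligodendrocytes (0.173 to 0.943) held an S100a8 UMI at 1000 UMIs. In severe replicate 2 the shares were 2.84% (2.35 to 3.43) and 0 of 206 cells, which allows up to 1.46%. In moderate replicate 2 they were 1.26% (0.936 to 1.68) and 0.820% (0.145 to 4.50), which do not differ beyond counting error. Moderate replicate 1 had the opposite order of levels, with 39.1 CPM of S100a8 and 111.5 of S100a9 in oligodendrocytes and 29.4 and 49.0 in macrophages/microglia. How much of the S100a8 and S100a9 signal outside neutrophils is free RNA was not tested further.

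**Figure D2:**
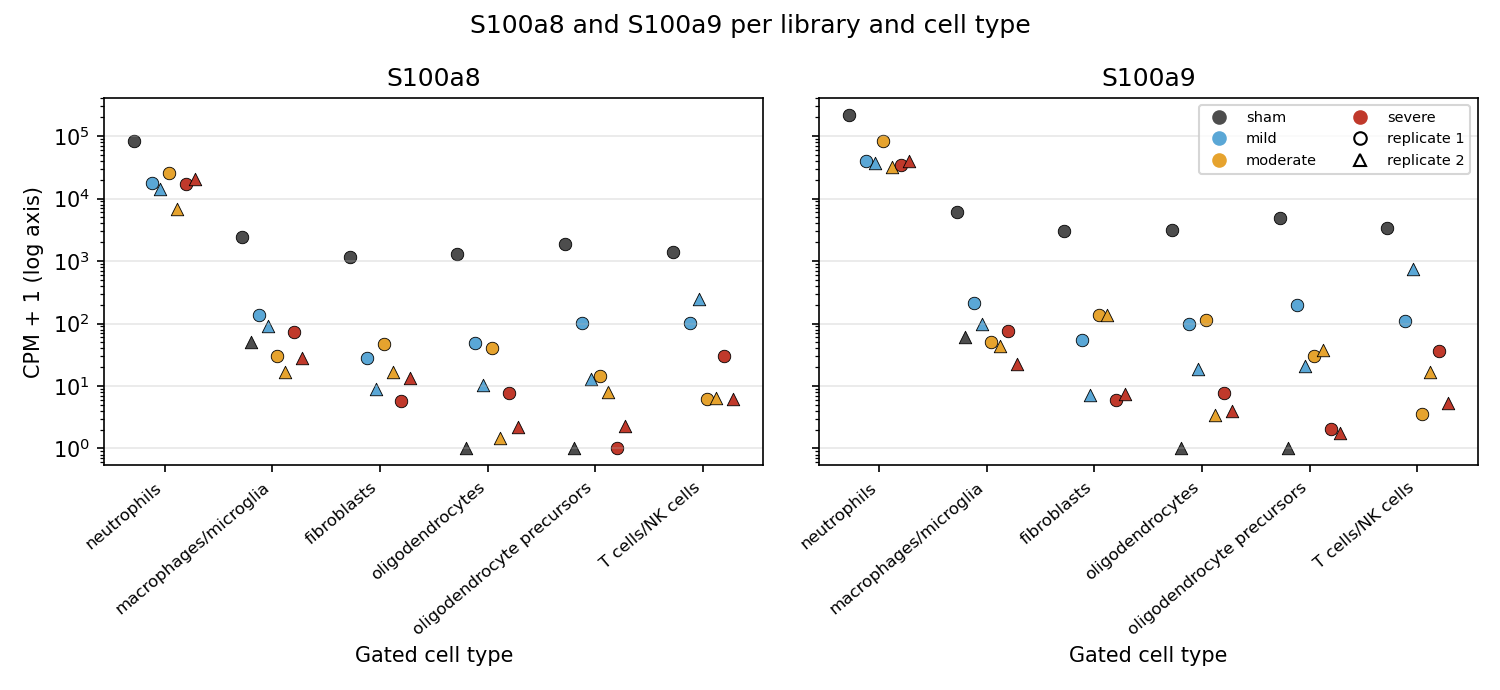
S100a8 (left) and S100a9 (right) in CPM + 1 on a log axis for each library (points, colour = injury group, shape = replicate) in 6 gated cell types (x axis). Sham replicate 1 is the highest point in every type shown, and neutrophils lie above the other types of the same library.

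Between groups, UMI sums were compared with edgeR's quasi-likelihood test on all genes tested, adjusted with Benjamini-Hochberg. In neutrophils 8 of the 9 genes passed the filter on low counts, without S100a1. Since the sham arm is 1 library here, its spread is assumed to be that of the other groups, and a call says that the injured libraries differ from that library, not from sham cords in general. On that footing 3 of 8 genes were called in mild, where 9.27% of all 5784 genes tested were called in either direction, 3 of 8 in moderate (4.89% of all genes) and 4 of 8 in severe (12.2% of all genes), all with lower values in the injured libraries. Between severe and mild, which have 2 libraries each, 1 of 8 was called (2.28% of all genes).

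S100a8 was at -3.45, -3.27 and -2.75 log2 units and S100a9 at -3.60, -2.84 and -3.17 in mild, moderate and severe against the sham library. S100a11 was at -2.54 in mild and -1.81 in severe, from 4774 CPM in sham replicate 1 to 1774 and 1694 in mild and 2286 and 1802 in severe. In moderate its levels of 2461 and 1965 CPM gave -2.0, which did not pass. The counts in moderate and severe therefore hold a call outside S100a8, S100a9 and S100a11. S100b was also lower in every injured library than in the sham library, at the levels given below. Those levels rest on few UMIs, 29 and 11 in mild, 6 and 7 in moderate and 1 and 6 in severe. S100a4 and S100a10 had positive values that did not pass, at 3.03 and 1.94 in mild. The median of the 8 genes was -1.02, -1.43 and -1.48 against the sham library in mild, moderate and severe, where the median of all genes tested was within 0.021 of 0.

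S100b in neutrophils, a glial gene, fell by 3.26 ± 0.75 log2 units (SE) in severe against mild (edgeR adjusted p = 0.0309). It was not called without sham replicate 1, mild replicate 2, severe replicate 1 or either moderate replicate, nor with only these groups in the fit. Its levels there were low, at 146 CPM in sham replicate 1, 52.1 and 127 in mild, 57.0 and 23.0 in moderate and 1.20 and 12.3 in severe. Oligodendrocytes, its main source, were 14.61% of the cells of sham replicate 1, 6.718% and 16.29% in mild, 1.727% and 1.914% in moderate and 1.832% and 2.774% in severe, and the part of free oligodendrocyte RNA in these values was not tested.

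These neutrophil values lean on how libraries are scaled. The normalisation factor (trimmed mean of M values, TMM) of the sham library was 0.599, against 0.854 to 1.396 elsewhere. With library sizes alone the median of all genes moved by 1.06, 0.88 and 0.57 log2 units in mild, moderate and severe against sham, and S100a8 in mild was -2.37 and still called.

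The 2 subsets of macrophages/microglia differed in S100 genes in all 8 libraries. S100a11 was higher in infiltrating-type than in microglia-type cells by 6.09 ± 1.19 log2 units (SD), S100a6 by 5.03 ± 1.05, S100a10 by 3.46 ± 0.64 and S100a4 by 2.55 ± 0.75, in 8 of 8 libraries each (exact permutation p = 0.00781, the smallest 8 libraries allow, adjusted p = 0.0251). The other 5 genes did not pass, with S100a13 at 0.14 ± 0.19 (adjusted p = 0.1 by the exact test). S100a13 is known for its part in the release of Fgf1 and Il1a, which lack a signal peptide.

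S100a11 ranged from 959 to 2762 CPM in infiltrating-type cells and from 5.28 to 70.7 in microglia-type cells. S100a4 was at 2780 and 414 CPM in sham, 1518 and 1006 in mild, 1229 and 1228 in moderate and 1552 and 1038 in severe infiltrating-type cells, and at 174 to 250 in microglia-type cells. S100a6 was at 4099 and 142 CPM in sham and 593 to 1895 in injured infiltrating-type cells, and at 10.2 to 57.3 in microglia-type cells. S100a10, the partner of annexin A2 also called p11, was at 607 to 2299 CPM in infiltrating-type cells and 41.7 to 135 in microglia-type cells. For none of the 4 genes do the ranges of the subsets overlap.

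At 1000 UMIs per cell, 61.4% of infiltrating-type and 2.59% of microglia-type cells held an S100a11 UMI. The shares were 61.1% and 17.7% for S100a4, 57.0% and 8.55% for S100a10 and 43.4% and 3.16% for S100a6. The depths are alike, with medians of 11370 and 10380 UMIs. The infiltrating-type cells of sham replicate 2 are 63 cells, and 22.9% of all microglia-type cells lie near the limit that separates them from the other type.

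**Figure D3:**
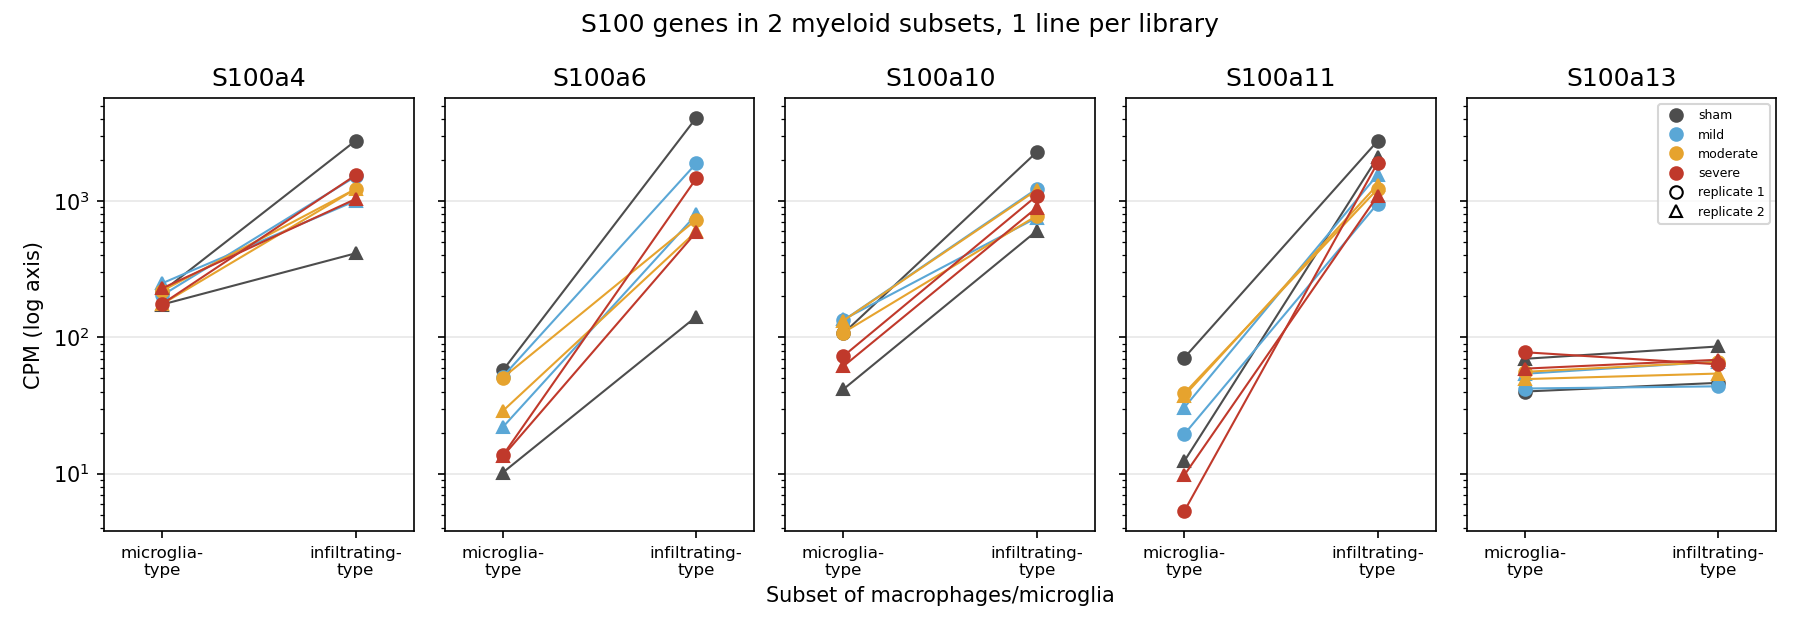
CPM on a log axis of 5 S100 genes in microglia-type and infiltrating-type macrophages/microglia (x axis), with 1 line per library coloured by injury group. All 8 lines go up for S100a4, S100a6, S100a10 and S100a11, and the lines for S100a13 are close to flat.

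Across injury groups, none of the 9 genes passed in macrophages/microglia as a whole. By edgeR 0 of 9 were called in mild (5.68% of all 13263 genes tested), moderate (1.4% of genes) and severe (6.7% of genes) against sham, and 0 of 9 in severe against mild (2.21% of genes). At unadjusted p under 0.05 there were 2, 2, 3 and 0 of 9, beside 28.8%, 21.4%, 28.2% and 20.1% of all genes. DESeq2 called 0, 2, 3 and 0, beside 10.8%, 6.29%, 10.7% and 5.46% of all genes. S100a9 was at -4.07 ± 1.57, -5.86 ± 1.71 and -5.38 ± 1.68 (SE) against sham (edgeR adjusted p = 0.139, 0.121 and 0.0897). The median of the 9 genes was -0.10, -0.56 and 0.64 in the 3 comparisons with sham, and that of all genes tested was -0.02, 0.03 and -0.08. The low values of S100a9 depend on sham replicate 1. Without that library S100a9 was at 1.35, -0.47 and 0.004 in mild, moderate and severe against sham, and S100a8 at 1.17, -1.23 and 0.31.

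In these cells the 2 sham libraries differ by more than the 2 libraries of any other group. S100a6 was at 1470 and 15.2 CPM in sham, 1130 and 385 in mild, 418 and 428 in moderate and 1180 and 376 in severe macrophages/microglia. S100a4 was at 1197 and 189 CPM in sham and 636 to 1282 in the injured libraries. S100a10 was at 920 and 70.5 CPM in sham and 461 to 913 in the injured libraries, and S100a11 at 1059 and 94.6 against 585 to 1551. Sham replicate 2 is thus the lowest library for all 4 genes, and sham replicate 1 lies within or above the injured range.

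The share of macrophages/microglia that were microglia-type was 28.2% and 90.1% in sham, 17.6% and 31.96% in mild, 29.5% and 7.03% in moderate and 12.7% and 22.4% in severe. It is highest in sham replicate 2, where the 4 genes are lowest. Moderate replicate 1 and sham replicate 1, with near shares of microglia-type cells, had 418 and 1470 CPM of S100a6. Their shares of infiltrating-type cells were 52.19% and 29.52%, so their make-up is not alike. The part of these shares in the group values was not tested.

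Which sham library is kept decides the calls. Each such fit has 1 sham library, whose spread is assumed to be that of the other groups. Without sham replicate 1, 4 of the 9 genes were called in each comparison with sham, beside 14.4%, 9.68% and 13.3% of all genes in mild, moderate and severe. These were S100a4, S100a6, S100a10 and S100a11, all higher in the injured libraries. In severe against sham their values were then 2.74, 5.98, 3.73 and 3.88 log2 units. Without sham replicate 2, 2, 3 and 4 genes were called, beside 12.1%, 5.95% and 13.3% of all genes. S100a8 and S100a9 were called in all 3 comparisons, at -4.98 and -6.34 in severe, with S100b in moderate and severe and S100a13, at 1.24, in severe. No gene was called in both of these settings.

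**Figure D4:**
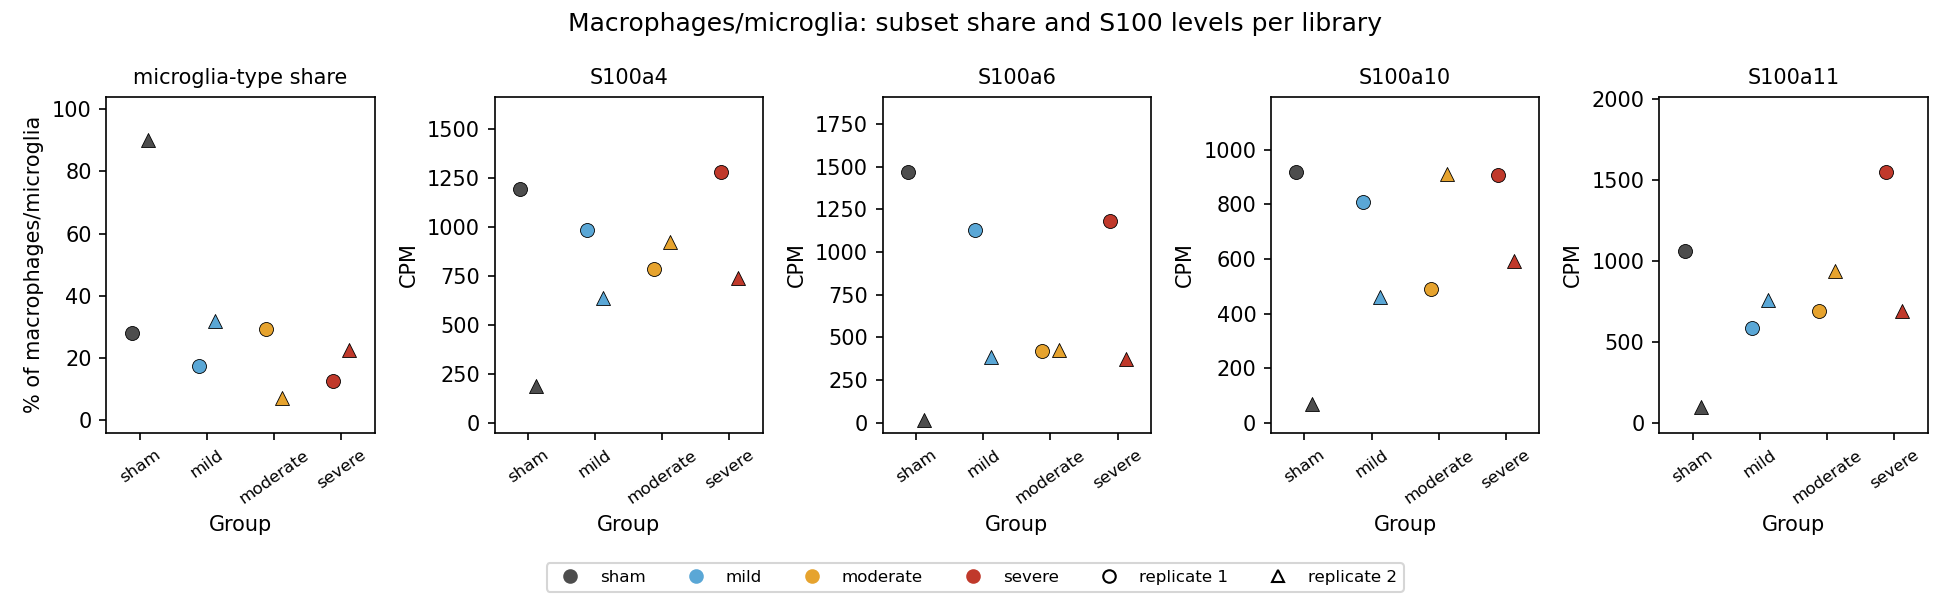
Share of microglia-type cells in percent (left panel) and CPM of S100a4, S100a6, S100a10 and S100a11 in macrophages/microglia (y axes) by injury group (x axis), 1 point per library, shape = replicate. The sham replicates lie far apart in every panel, with replicate 2 at 90.1% microglia-type cells and below all other libraries for the 4 genes.

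Within microglia-type cells 0 of 9 genes were called by edgeR in mild (0.638% of all 11436 genes tested), moderate (0.0787% of genes) and severe (1.15% of genes) against sham, and 0 of 9 in severe against mild (2.2% of genes). At unadjusted p under 0.05 there were 3, 2, 4 and 1 of 9, beside 22.7%, 16.7%, 18.4% and 17.3% of all genes. DESeq2 called 1, 2, 3 and 0, beside 3.64%, 2.01%, 2.49% and 3.02% of all genes. S100a9 had the values -5.01 ± 1.39, -6.22 ± 1.47 and -7.28 ± 1.56 (SE) against sham (edgeR adjusted p = 0.0901, 0.109 and 0.0631), and the levels of sham replicate 1 are given above. Without sham replicate 1, S100a9 was at -3.04 in severe and S100a8 at -2.36 in moderate, both against sham replicate 2 alone. In sham replicate 2, 1158 S100a9 UMIs lay in microglia-type cells and 0 in infiltrating-type cells and in oligodendrocytes. The low share of macrophages/microglia of that library with an S100a8 UMI is given above, so these values rest on few cells. S100a10 was at 107 and 41.7 CPM in sham, 133 and 135 in mild, 108 and 133 in moderate and 73.0 and 61.5 in severe. Its value in mild against sham was 0.93 ± 0.34 (SE, edgeR adjusted p = 0.151), and without sham replicate 1 it passed in mild at 1.51 and in moderate at 1.27, beside 7.24% and 3.21% of all genes. S100a11 was at -1.86 ± 0.63 in severe against sham (edgeR adjusted p = 0.192), and at -2.56 in the fit without sham replicate 2. The medians of the 9 genes lay at -0.52, -0.20 and -0.81 against sham and at -0.82 in severe against mild.

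S100b was the leading S100 gene of oligodendrocytes, at 2841 ± 919 CPM (SD, n = 8). It was at 2514 and 1700 CPM in sham, 2941 and 3788 in mild, 4412 and 2497 in moderate and 1851 and 3023 in severe, so that the groups overlap. S100a1, a calcium sensor best known from muscle, was at 179 ± 46.5 CPM and S100a13 at 260 ± 64.6, and both ranked higher in oligodendrocytes than in any other type by mean CPM. For S100a13 the lead over endothelial cells lay within the spread over shared libraries (0.09 ± 0.50 log2 units, SD, n = 4). Against macrophages/microglia of the same library S100b was higher by 7.92 ± 1.44 log2 units, S100a1 by 4.96 ± 0.56 and S100a13 by 2.11 ± 0.31 in 8 of 8 libraries (exact permutation adjusted p = 0.0251). S100a4 was lower by 4.90 ± 1.06, S100a6 by 3.28 ± 1.49 and S100a11 by 5.27 ± 1.35, also in 8 of 8. In all 8 of the 9 genes differed, with S100a8 and S100a9 lower in 7 of 8, and S100a10 did not (-0.38 ± 1.04).

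Oligodendrocyte precursors carried another S100 profile than oligodendrocytes, with 6 of the 9 genes differing. S100a10 was at 1133 and 2351 CPM in sham, 3028 and 2280 in mild, 2610 and 2753 in moderate and 3869 and 3770 in severe precursors. In oligodendrocytes it was at 348 and 165 CPM in sham, 548 and 476 in mild, 510 and 1056 in moderate and 199 and 430 in severe. It was higher in precursors by 2.67 ± 1.00 log2 units (SD, 8 of 8 libraries). S100a11 was higher in precursors by 2.77 ± 1.97, also in 8 of 8, at 49.7 to 373 CPM against 0 to 76.8.

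S100b was lower in precursors by 3.65 ± 0.60, at 126 to 318 CPM, and S100a1 was lower by 1.92 ± 0.52, at 23.2 to 76.1 CPM, both in 8 of 8 libraries (exact permutation adjusted p = 0.0251). S100a13 was lower by 0.48 ± 0.33 and S100a6 by 0.58 ± 0.44, each in 7 of 8 (adjusted p = 0.026 by the exact test). S100a4 differed by 0.03 ± 0.93. At 1000 UMIs per cell 61.6% of oligodendrocytes (60.0 to 63.2), 11.5% of neutrophils and 1.498% of macrophages/microglia held an S100b UMI.

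**Figure D5:**
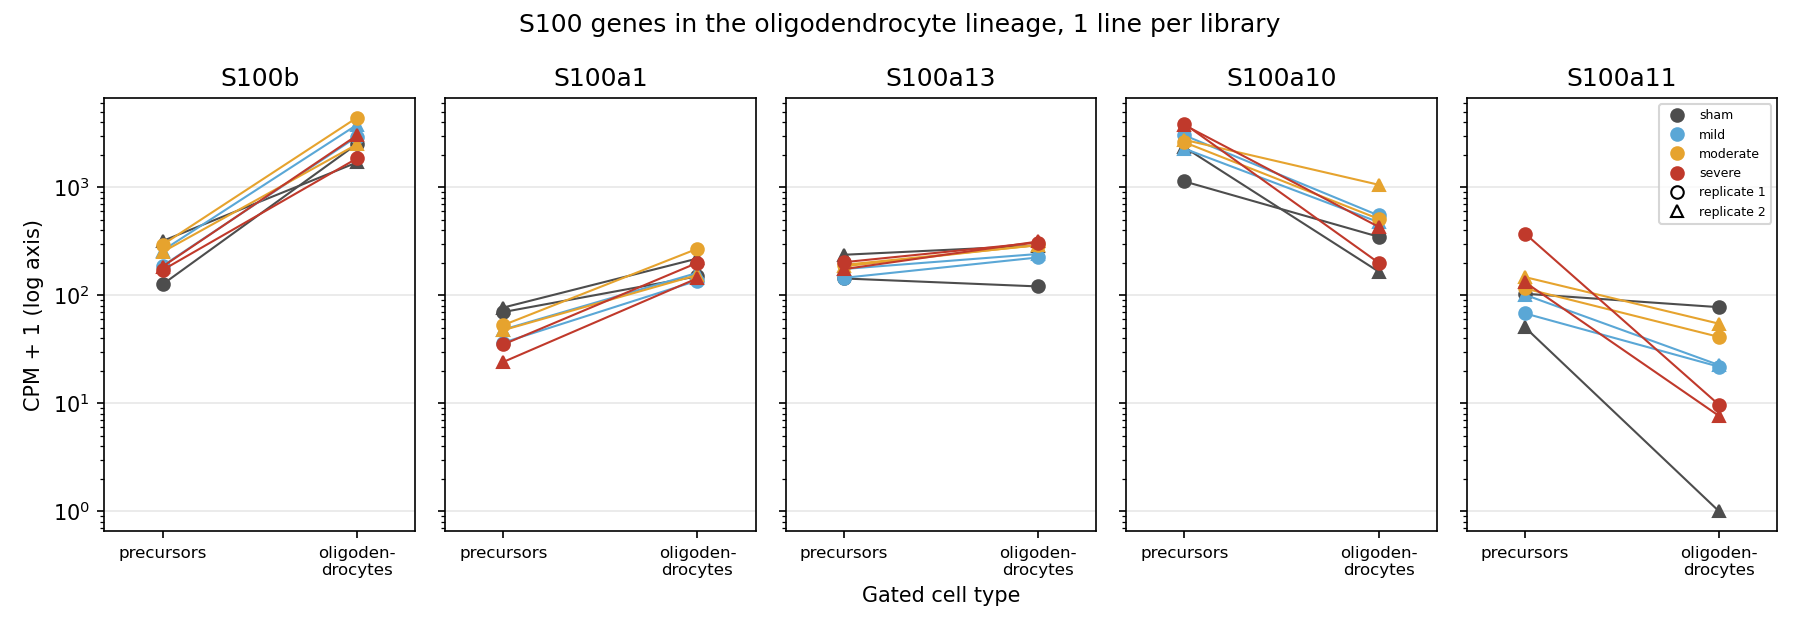
CPM + 1 on a log axis of 5 S100 genes in oligodendrocyte precursors and oligodendrocytes (x axis), 1 line per library coloured by injury group. All 8 lines go up for S100b and S100a1 and down for S100a10 and S100a11.

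Between injury groups 0 of 9 genes were called by edgeR in oligodendrocytes in mild (6.79% of all 9755 genes tested), moderate (4.18% of genes) and severe (1.08% of genes) against sham, and 0 of 9 in severe against mild (2.74% of genes). At unadjusted p under 0.05 there were 3, 3, 4 and 1 of 9, beside 27.7%, 22%, 22.2% and 19.6% of all genes. DESeq2 called 0, 1, 0 and 0, beside 3.02%, 2.44%, 1.46% and 1.81% of all genes. S100b was at 0.69 ± 0.37, 0.53 ± 0.37 and 0.44 ± 0.37 (SE) in mild, moderate and severe against sham (edgeR adjusted p = 0.246, 0.436 and 0.498). S100a10 was at 0.99 ± 0.43 in mild and 1.37 ± 0.43 in moderate (edgeR adjusted p = 0.161 and 0.0975), and DESeq2 called the latter. Without sham replicate 2, S100a8, S100a9, S100a11 and S100a13 passed in mild and severe, S100a6 also passed in severe, and S100a8, S100a9 and S100a13 passed in moderate, beside 11.7%, 6.06% and 6.26% of all genes in mild, severe and moderate. Without sham replicate 1, S100a6 and S100a11 passed in moderate, beside 0.885% of all genes. The medians of the 9 genes were 0.24, 0.35 and -0.26 against sham.

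In fibroblasts, which form much of the scar of the injured cord, S100a6 was at 8361 ± 2650 CPM (SD, n = 7), and 94.2% of cells held an S100a6 UMI at 1000 UMIs (93.1 to 95.2). It was at 8378 CPM in sham replicate 1, 8739 and 6284 in mild, 7726 and 4281 in moderate and 11846 and 11273 in severe. The severe libraries are the highest, and the other 3 groups overlap. Within libraries fibroblasts exceeded macrophages/microglia in S100a6 by 3.61 ± 0.82 log2 units, in S100a1 by 2.02 ± 0.98 and in S100a10 by 1.17 ± 0.69, each in 7 of 7 libraries (exact permutation adjusted p = 0.026). S100a4 was lower in fibroblasts by 2.66 ± 0.74. In all 7 of the 9 genes differed, with S100a11 (0.64), S100a13 (0.69) and S100b (1.19) also higher. S100b was at 102 CPM in fibroblasts of sham replicate 1 and 5.14 to 45.7 in those of the injured libraries. The part of free RNA in these S100b values was not tested.

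Sham fibroblasts are again 1 library, so that calls against sham are differences from that library. With its spread assumed to be that of the other groups, 2 of 9 genes were called in mild (2.12% of all 11690 genes tested), moderate (3.45% of genes) and severe (3.16% of genes) against sham, and 0 of 9 in severe against mild (1.62% of genes). Both were S100a8 and S100a9 each time, with S100a8 at -6.11, -5.44 and -6.90 log2 units and S100a9 at -6.70, -4.74 and -8.88. The level of both genes in all gated types of sham replicate 1 given above stands beside these values. With types taken from clusters neither gene was called.

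For severe against mild 5 of 9 genes had an unadjusted p under 0.05 in fibroblasts, beside 22.3% of all genes, and DESeq2 called 2, beside 3.22% of all genes. S100a11 was at 878 and 1012 CPM in mild and 2882 and 1448 in severe, a difference of 1.54 ± 0.33 log2 units (SE, edgeR adjusted p = 0.0681). S100a10 was at 1750 and 1152 CPM in mild and 2013 and 3143 in severe, a difference of 1.17 ± 0.31 (edgeR adjusted p = 0.0949). For both genes the severe libraries lie above the mild ones, and DESeq2 called these 2. The medians of the 9 genes were -0.34, -0.73 and 0.62 against sham and 0.82 in severe against mild, where that of all genes tested lay within 0.03 of 0.

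S100a10 was high in several neural types. Its highest means were in astrocytes, at 3720 and 4203 CPM in the 2 moderate libraries, and in cells gated as neurons. The latter were at 3920 CPM in mild replicate 2 and at 3325 and 3552 in moderate replicates 1 and 2. Oligodendrocyte precursors and Schwann cells followed, both at 2724 CPM on average, the Schwann cells with 1175 in sham replicate 1 and 4272 in moderate replicate 2. Fibroblasts were at 1684 and dendritic cells at 1350 CPM on average. Astrocytes of the same 2 libraries also carried S100b, at 2644 and 789 CPM, and S100a6, at 1999 CPM on average. The gated astrocytes are 135 cells and the neurons 123, and 33.33% and 50.41% of them lie near the limit of their gate. Of the cells gated as neurons, 79.67% held Map2, 78.86% Gad2, 73.17% Gad1 and 54.47% Nefm. Only 27.64% held Snap25, 12.2% Syt1 and 4.878% Rbfox3, so their name is uncertain. S100b was at 719 CPM in sham replicate 1 and 500 CPM in moderate replicate 2 in Schwann cells, the myelinating cells of peripheral nerve.

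S100a4 also marked T cells/NK cells, at 110 CPM in sham replicate 1, 751 and 1011 in mild, 717 and 1158 in moderate and 860 and 610 in severe. These do not differ from macrophages/microglia beyond the spread over libraries (0.54 ± 1.34 log2 units lower, n = 7). In neutrophils it was at 22.5 CPM in sham replicate 1 and 18.0 to 807 in the injured libraries.

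Other S100 genes were low apart from S100a16. Of the 8 others in the table only S100a16 and S100a3 reached 10 CPM in a type, S100a16 with 483 ± 39.5 CPM in endothelial cells (SD, n = 4) and 347 in oligodendrocytes, and S100a3 with 36.8 CPM in astrocytes. S100a7a, S100a7l2 and S100vp had no UMI in any gated type with 20 cells. None of the 8 was called by edgeR in any of the 20 comparisons, in which 1 or 2 were tested.

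Of 14 genes for partners and receptors, 12 were tested in macrophages/microglia and 1 fell in each comparison with sham. Of all genes tested there, 5.68%, 1.4% and 6.7% were called in mild, moderate and severe. The 14 genes were not followed under the alternatives, so their dependence on either sham library was not tested. The gene that fell was Tlr4, a receptor for released S100A8 and S100A9, at -1.72 ± 0.32, -1.70 ± 0.32 and -1.95 ± 0.32 (SE, edgeR adjusted p = 0.0309, 0.04995 and 0.0191). In microglia-type cells 1 of 11 rose in severe against mild (2.2% of all genes called), which was Il1a at 4.69 ± 0.80, and none was called against sham. In neutrophils 3, 1 and 2 of 10 were called with lower values in mild, moderate and severe against the 1 sham library. The shares of all genes called there were 9.27%, 4.89% and 12.2%. Anxa1, the partner of S100a11, was at -3.72, -2.91 and -2.81, Anxa2 at -2.08 in mild, and the kinase Stk38 at -2.38 in mild and -2.81 in severe.

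In oligodendrocytes 2 of 9 partners rose in mild and 2 in moderate against sham, beside 6.79% and 4.18% of all genes called. Anxa2, the partner of S100a10, rose by 1.03 ± 0.27 in mild and 1.52 ± 0.28 in moderate (SE, edgeR adjusted p = 0.0483 and 0.021), with Anxa11 at 0.91 in mild and Ahnak, which binds S100a10 and annexin A2, at 2.96 in moderate. In fibroblasts 1 of 11 was called in severe against the 1 sham library (3.16% of all genes called), which was Anxa2 at 1.46.

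The genes with the most similar pattern were found by Pearson correlation of log2(CPM + 1) over 70 sums of a library and a type, among 13529 genes. These sums share libraries, so the values are descriptions. S100a8 was closest to S100a9 (0.976), then to the transcript AABR07034362.2 (0.920) and the neutrophil collagenase Mmp8 (0.918). Mmp8 is a marker of the neutrophil gate, so its value is partly set by how the sums were made. S100b was closest to Fez1 (0.943), the lens and glial chaperone Cryab (0.914) and Cmtm5 (0.904). S100a11 was closest to Anxa2 (0.855), Anxa1 (0.836) and Plp2 (0.828), and S100a6 to fibronectin, Fn1 (0.778), Gda (0.771) and Anxa1 (0.767).

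S100a4 was closest to Metrnl (0.780), Cd8a (0.773) and Cotl1 (0.712). S100a1 was closest to Pcsk6 (0.859), LOC100366030 (0.852) and Atl1 (0.847), S100a10 to Tfdp1 (0.817), Rangap1 (0.813) and Cdc123 (0.806), and S100a13 to Rdx (0.878), Commd3 (0.876) and Cdk2ap1 (0.871). S100a11 has 5 pseudogenes and 2 like genes in RefSeq and S100a10 has 1 pseudogene, so their counts are uncertain where reads could be shared with a copy.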

How the data were processed

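Single-cell libraries were deposited as matrices of UMI counts per gene and cell, which the authors made with Cell Ranger (5.0.1 in the matrix headers) on Rnor_6.0 (per the labels). The values used here are these deposited counts. Cells over 10% mitochondrial UMIs, the 7.7% of cells with the highest Scrublet scores (scanpy 1.11.5) and cells over 2 SDs from the mean of genes or UMIs were removed, after the study's stated limits. Clusters (30, leidenalg 0.10.2, made without S100 genes) served as an alternative.

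Cells were assigned to a type with at least 3 markers above the library mean and a best score at least 1.5 times the next. The scoring rule was settled on the gate tables, without S100 values. UMIs were summed per library and type with at least 20 cells, and cells were not used as replicates. Group comparisons used edgeR 4.0.16 (R 4.3.3) with TMM and group means, on all libraries with the type. DESeq2 1.42.0, other filters and leaving out each library were alternatives. A lone sham library is assumed to vary like the other groups. Types were compared within libraries by exact sign-flip tests of log2(CPM + 1), a pseudocount of 1 CPM, in Python 3.11.15. The scripts were tested on simulated data.

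Named were all 9 genes, other S100 genes at 10 CPM or more in a type, and the 3 most correlated genes of each. Partners were named because they were called, after their values were seen. Members and lists were chosen with earlier results of these data known. Replicate numbers were not used to pair samples. The correlation of same-numbered libraries of macrophages/microglia over 6337 genes lay between -0.37 and 0.32. With 2 libraries per group such values cannot exclude a pairing.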

Additional observations from a re-analysis of the deposited data

How the results depend on the processing

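The 2 libraries per group and the distance between the sham libraries limit every comparison with sham, and few cells limit statements on astrocytes and neurons. No S100 difference called in the main fits changed sign under the alternatives that gave a value. Against sham these calls were in neutrophils and fibroblasts, where leaving out sham replicate 1 gave no value. The check therefore cannot say whether they depend on that library. Under DESeq2 the genes called numbered 2 and 3 in macrophages/microglia (moderate, severe against sham), 1, 2 and 3 in microglia-type cells (mild, moderate, severe), 1 in oligodendrocytes (moderate), and 5 (severe) and 2 (severe against mild) in fibroblasts. With no filter on low counts they numbered 2, 3, 4 and 1 in macrophages/microglia, 2, 3, 4 and 4 in microglia-type cells, 4, 3, 4 and 4 in oligodendrocytes (mild, moderate and severe against sham, then severe against mild), 5, 5 and 2 in neutrophils (mild, moderate, severe against mild), and 4, 7 and 7 in fibroblasts (moderate, severe, severe against mild). The cause was not tested. With types from clusters they numbered 1 in severe against sham in macrophages/microglia, microglia-type cells and oligodendrocytes, 5 (moderate) and 0 (severe against mild) in neutrophils, and 0 in each comparison of fibroblasts with sham. With only the 2 groups compared, severe against mild gave 1 in macrophages/microglia, 1 in microglia-type cells and 0 in neutrophils. Over all genes, mild against sham in macrophages/microglia called 753 of 13263 by edgeR and 2103 of 19527 by DESeq2. No share of all genes is given beside the counts with no filter, with types from clusters or with only the 2 groups compared. The same holds below for libraries left out other than sham and for the replicate number as a block. Such counts alone do not say whether S100 genes were called more often than all genes.

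Leaving out each library in turn gave 0 to 4 genes in each comparison of macrophages/microglia with sham, 0 to 2, 0 to 3, 0 to 5 and 0 to 2 in microglia-type cells, 0 to 6, 0 to 3, 1 to 3 and 0 to 3 in neutrophils, 0 to 4, 0 to 3, 0 to 5 and 0 to 2 in oligodendrocytes and 1 to 2, 0 to 2, 1 to 3 and 0 to 1 in fibroblasts. In neutrophils, leaving out mild replicate 1 or 2 left 1 and 0 calls in mild, and leaving out moderate replicate 1 or 2 left 1 and 0 in moderate. Severe against mild fell to 0 there without sham replicate 1, mild replicate 2, either moderate replicate or severe replicate 1. Leaving out sham replicate 1 gave no value for neutrophils or fibroblasts against sham. Between types the counts ranged over 0 to 6 (neutrophils), 0 to 5 (subsets), 0 to 8 and 0 to 6 (oligodendrocytes, precursors) and 0 to 7 (fibroblasts). They were 0 in all 5 pairs with at least 100 cells of both types. Fewer libraries raise the smallest p of the pairs that lost libraries. The fibroblast pair lost none, its fewest fibroblasts being 101, so its values and its unadjusted p did not change. Its adjusted p also depends on the other pairs, since the adjustment runs over the tests of all 5 pairs. Its 0 is therefore no sign of a change in its levels. Thinned to 500 UMIs, an S100a8 UMI was held by 85.1% of neutrophils, 18.7% of oligodendrocytes and 4.62% of macrophages/microglia.

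Correlations of same-numbered libraries had both signs, which gives no ground to pair the samples by number and cannot exclude a pairing. With the replicate number as a block, neutrophils had 3 (mild), 1 (moderate) and 1 (severe) calls against sham and 3 in severe against mild, oligodendrocytes had 1 in moderate against sham, fibroblasts had 2 in each comparison with sham, and all other counts were 0.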
